A study of Mus musculus with 10 samples.

Results

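A set of 9 genes that encode fatty acid desaturases and elongases was described in livers of Etnppl knockout (KO) and wild-type (WT) mice. The members were taken by gene symbol from a fixed list, Fads1, Fads2, Fads3, Fads6, Elovl1, Elovl2, Elovl3, Elovl5 and Scd2, and all 9 were found among the 47729 genes of the deposited table, each on 1 row. The samples were livers of females, 5 labelled as full-body knockouts of Etnppl and 5 as WT. Etnppl encodes the enzyme that breaks down phosphoethanolamine. Mice of both genotypes were fed chow for 8 weeks, followed by 10 weeks on a diet in which fat supplied 45% of the energy. The sources used here do not give their strain, the time of day at collection or the deleted part of the gene. Polyadenylated RNA was sequenced with 1 library per sample, and as the labels do not state that the samples are different animals, the p-values cover the spread among samples only.

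Polyunsaturated fatty acids of the omega-6 and omega-3 families are made in liver from linoleic and alpha-linolenic acid of the diet, by alternating steps that add a double bond or a pair of carbons. Fads2 encodes the desaturase that takes the first step, Elovl5 the elongase that follows it, and Fads1 the desaturase that then makes arachidonic and eicosapentaenoic acid. Elovl2 encodes the elongase that leads on toward docosahexaenoic acid. The liver is a main site of this pathway, and its genes are known targets of the transcription factors SREBP-1c and PPAR alpha. Of the other members, Elovl1 and Elovl3 encode elongases of saturated and monounsaturated very-long chains, Scd2 a stearoyl-CoA desaturase that makes monounsaturated chains, and Fads3 a desaturase of sphingoid bases. Fads6 is named for its resemblance to the desaturases. The title given to the gene set therefore describes the enzymes of Fads1, Fads2, Elovl2 and Elovl5 more closely than those of the remaining 5.

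The members lie on 5 chromosomes, with coordinates from GENCODE M21 on GRCm38, the assembly behind mm10. Fads3 (chr19:10041569-10060110, plus strand), Fads2 (chr19:10062765-10101746, minus strand) and Fads1 (chr19:10182888-10196877, plus strand) form a cluster in which 2654 bases separate Fads2 from Fads3 and 81141 bases separate Fads1 from Fads2. Scd2 (chr19:44293674-44306864) and Elovl3 (chr19:46131897-46135694) are on the plus strand of the same chromosome. Elovl5 is at chr9:77917364-77984519 on the plus strand, Elovl2 at chr13:41182381-41220405 on the minus strand, Elovl1 at chr4:118428093-118432953 on the plus strand and Fads6 at chr11:115279622-115297663 on the minus strand. All 9 are annotated as protein-coding. Exons of Elovl1 share 53 bases with Cdc20 and those of Elovl3 share 10 bases with Pitx3, both on the opposite strand, and exons of Scd2 hold the 61 bases of Mir5114. The sources used here do not state whether counting used the strand, so reads of the partners cannot be told apart in these stretches.

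Sequences before the gene start are shown for both of the abundant elongase genes, Elovl5 and Elovl2, and for Fads3, a gene at the low end of the range. They are examples among the windows that lie almost wholly before the annotated exons. Each is 250 bases, 5′ to 3′ on the gene's strand, from RefSeq (GRCm38.p6). Capitals mark matches, on either strand, to the sterol regulatory element TCACNCCAC, the CCAAT box, the E-box CACGTG or the nuclear receptor repeat in which AGGTCA occurs 2 times with 1 base between.
Elovl5, chr9:77917115-77917364, plus strand: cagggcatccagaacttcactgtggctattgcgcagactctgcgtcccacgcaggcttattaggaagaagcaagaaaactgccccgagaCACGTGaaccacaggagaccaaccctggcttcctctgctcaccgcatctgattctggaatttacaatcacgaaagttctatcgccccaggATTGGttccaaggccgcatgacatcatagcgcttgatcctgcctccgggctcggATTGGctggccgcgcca
Elovl2, chr13:41220404-41220653, minus strand: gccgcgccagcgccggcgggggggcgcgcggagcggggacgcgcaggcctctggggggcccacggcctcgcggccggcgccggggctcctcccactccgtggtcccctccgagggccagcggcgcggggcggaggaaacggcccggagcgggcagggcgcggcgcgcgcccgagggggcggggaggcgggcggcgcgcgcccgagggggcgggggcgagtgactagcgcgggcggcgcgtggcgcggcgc
Fads3, chr19:10041298-10041547, plus strand: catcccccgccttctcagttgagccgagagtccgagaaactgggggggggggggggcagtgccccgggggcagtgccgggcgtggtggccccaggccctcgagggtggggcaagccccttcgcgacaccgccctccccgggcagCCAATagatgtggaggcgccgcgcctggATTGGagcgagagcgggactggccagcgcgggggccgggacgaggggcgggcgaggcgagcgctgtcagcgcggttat
The Elovl5 window held 2 CCAAT boxes, both in the reverse direction as ATTGG, and 1 E-box, with a GC content of 55.6%. The Fads3 window held 2 CCAAT boxes, 1 in each direction, with a GC content of 74.4%. In the Elovl2 window, at 87.2% GC, these letters did not occur. Among 32851 windows of the same length before gene starts, 33.8% held a CCAAT box, 6.02% the E-box, 1.05% the sterol regulatory element and 0.0335% the nuclear receptor repeat, and the strings do not overlap one another in the windows shown. RefSeq windows were also matched for Elovl1 (2 windows, 1 of them with a CCAAT box). These letters did not occur in those matched for a second start of Elovl2, for Fads2 and for Fads6. Of the 250 bases of each, exons of the gene itself held 243 for Fads2, 101 for Fads6 and 51 for that start of Elovl2. The absence in Fads2 thus covers almost no sequence before its exons. Fads1, Elovl3 and Scd2 were not matched.

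The deposited values are FPKM, fragments scaled for transcript length and for the mapped fragments of the library. Levels can thus be set side by side between genes of a library. Between libraries they depend on the scaling: 65.11% of genes tested were lower in KO on FPKM and 50.25% with median-of-ratios scaling. The steps between low values gave a depth of 20900000 to 28400000 fragments per library, at which 1 FPKM stands for 20.9 to 28.4 fragments per kilobase of transcript. Etnppl was at 8.69 ± 1.16 FPKM in KO and 36.9 ± 11.5 FPKM in WT livers (mean ± SD, n = 5 each), with the highest KO library at 10.19 and the lowest WT library at 27.57 FPKM, so every library matched its label. The log2 fold change of Etnppl was -1.99 (limma adjusted p = 0.000387), and KO livers kept 23.6% of the WT level. The summed level of hepatocyte markers ran from 69288 to 80799 FPKM in KO and from 61738 to 73928 FPKM in WT livers. KO and WT were compared by the limma moderated test on log2(FPKM + 0.5). It covered the 12395 genes whose mean reached 0.5 FPKM, with Benjamini-Hochberg adjustment. Single genes were also compared by an exact two-sided permutation test of the difference of mean FPKM, without the log transform.

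No member passed the limma test at an adjusted p of 0.05, and none had an unadjusted p under 0.05. Over all genes tested 0.0645% passed the adjusted threshold, 0.0323% higher and 0.0323% lower in KO, and 11.8% had an unadjusted p under 0.05, 2.69% higher and 9.07% lower in KO. The KO and WT values overlapped in all 9 members, while 2.79% of all genes tested had groups that did not overlap. Of the 9 members, 6 had a negative log2 fold change, against 65.1% of all genes. With median-of-ratios scaling Fads1 and Scd2 had the other sign, which left 4 of 9 members with a negative value, against 50.25% of all genes. The median log2 fold change of the members was -0.03, beside -0.05 over all genes tested. The values by library are shown in the plot of FPKM per gene, and the fold changes with their intervals in the plot that follows it.

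**Figure D1:**
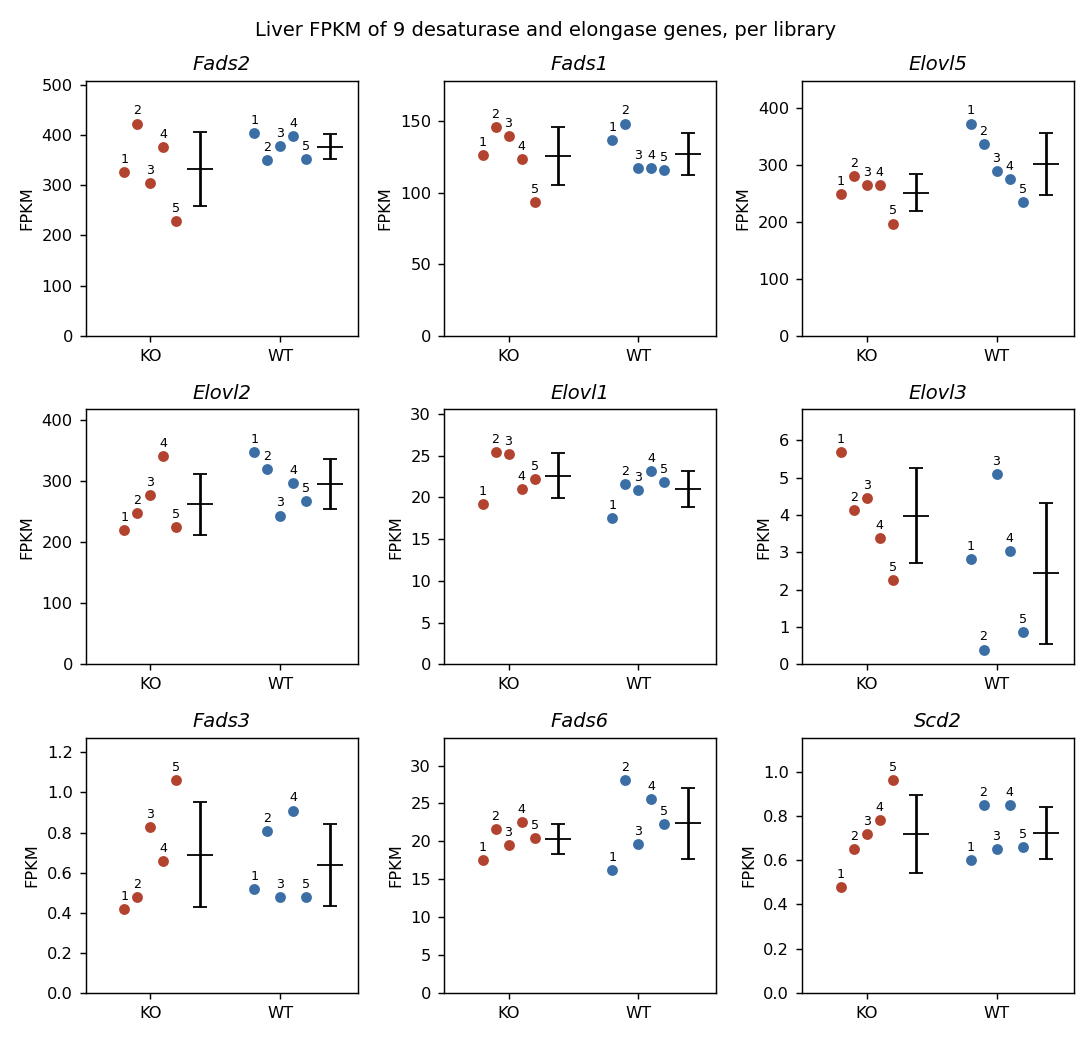
FPKM (y axis, linear from 0) of each of the 9 genes in the 5 KO libraries (red) and the 5 WT libraries (blue), numbered by replicate, with the mean and SD of each group as a black bar. The groups overlap in every panel, and KO replicate 5 is the lowest of all 10 libraries for Fads2, Fads1 and Elovl5 and the highest for Fads3 and Scd2.

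**Figure D2:**
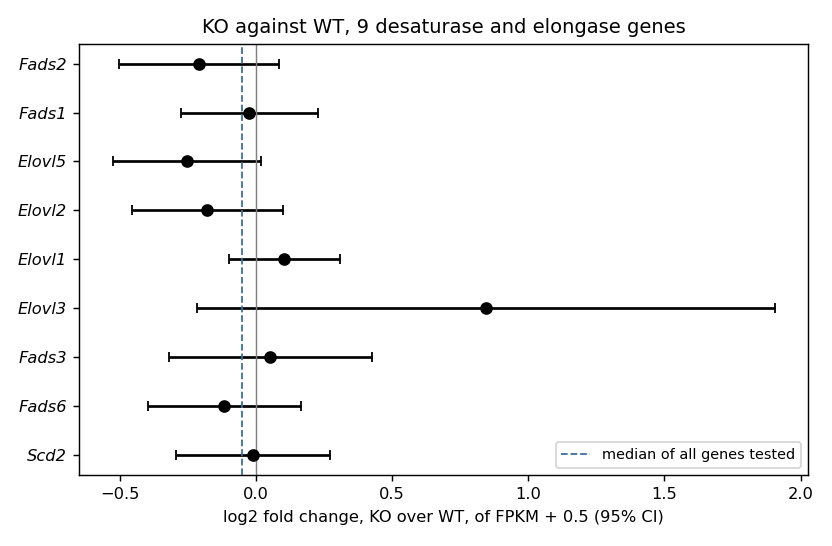
Log2 fold change of KO over WT on the log2(FPKM + 0.5) scale (x axis) for the 9 genes, with 95% confidence intervals from limma. The dashed line is the median of all 12395 genes tested, -0.05, and every interval includes 0, the widest being that of Elovl3, from -0.22 to 1.91.

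Fads2, the first desaturase of the pathway, was the most abundant member. It was at 326.35, 422.80, 303.91, 375.97 and 228.60 FPKM in KO replicates 1 to 5, and at 403.42, 350.88, 377.72, 397.82 and 351.67 FPKM in WT replicates 1 to 5. The KO values ran both below and above the WT values, with 3 KO libraries under the lowest WT library and 1 over the highest. The coefficient of variation was 22.2% in KO and 6.58% in WT livers. KO livers averaged 332 ± 73.6 and WT livers 376 ± 24.8 FPKM (SD, n = 5 each), and the log2 fold change was -0.21 (95% CI -0.50 to 0.08; limma adjusted p = 0.572; exact permutation p = 0.214). KO replicate 5 carried much of this difference, and without it the log2 fold change was -0.08 (limma adjusted p = 0.761). Leaving out KO replicate 2, the highest library, instead gave -0.31 (limma adjusted p = 0.398).

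Fads1, which completes arachidonic acid, was at 125.98, 146.03, 139.26, 123.18 and 93.28 FPKM in KO replicates 1 to 5. In WT replicates 1 to 5 it was at 136.94, 148.16, 116.95, 116.96 and 115.95 FPKM. The 2 groups covered nearly the same range, apart from KO replicate 5 below all others. The means were 126 ± 20.3 FPKM in KO and 127 ± 14.8 FPKM in WT livers. The log2 fold change was -0.03 (95% CI -0.28 to 0.23), and the interval spans a KO level from 0.826 to 1.17 times that of WT (limma adjusted p = 0.953; exact permutation p = 0.921). Its sign depended on single libraries: the log2 fold change was 0.08 without KO replicate 5, 0.03 without WT replicate 2 and 0.00 without WT replicate 1.

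Elovl5, the elongase that acts between Fads2 and Fads1, had the lowest p of the members. Its values were 249.83, 281.02, 265.26, 264.74 and 197.54 FPKM in KO replicates 1 to 5 and 373.17, 337.25, 289.32, 274.89 and 235.15 FPKM in WT replicates 1 to 5. WT replicates 1 to 3 lay above every KO library, but WT replicate 5 lay below all KO libraries except replicate 5. The means were 251.7 ± 32.2 FPKM in KO and 302 ± 54.0 FPKM in WT livers. On the log2 scale the difference was -0.25 (95% CI -0.53 to 0.02), and it did not pass (limma p = 0.0657, adjusted p = 0.451; exact permutation p = 0.135). It was -0.17 without KO replicate 5, also -0.17 without WT replicate 1, and -0.34 without WT replicate 5.

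Elovl2, the elongase on the way to docosahexaenoic acid, was at 218.93, 246.97, 276.46, 340.56 and 224.38 FPKM in KO replicates 1 to 5. The WT replicates 1 to 5 had 347.09, 319.21, 243.31, 295.62 and 266.92 FPKM. High and low values occurred in both groups, with KO replicate 4 near the top and 2 KO libraries under the lowest WT library. KO livers averaged 261 ± 49.7 FPKM and WT livers 294 ± 41.1 FPKM. The log2 fold change was -0.18 (95% CI -0.45 to 0.10; limma adjusted p = 0.615; exact permutation p = 0.302). It was -0.28 without KO replicate 4 and -0.12 without WT replicate 1.

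Among the elongases of other chains, Elovl1, which makes the very-long chains of sphingolipids, was at 19.23, 25.43, 25.22, 21.00 and 22.18 FPKM in KO replicates 1 to 5, and at 17.47, 21.61, 20.84, 23.12 and 21.86 FPKM in WT replicates 1 to 5. It varied least of the members over the 10 libraries, 1.46-fold between the lowest and the highest. Only KO replicates 2 and 3 lay above the highest WT library. The means were 22.6 ± 2.69 FPKM in KO and 21.0 ± 2.13 FPKM in WT livers, a log2 fold change of 0.10 (95% CI -0.10 to 0.31; limma adjusted p = 0.713). With single libraries left out it ran from 0.04 to 0.16.

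Elovl3, known in mouse liver for a level that follows the time of day and differs between the sexes, varied most. KO replicates 1 to 5 had 5.69, 4.13, 4.47, 3.38 and 2.25 FPKM. WT replicates 1 to 5 had 2.82, 0.40, 5.11, 3.04 and 0.87 FPKM, so that the WT group held both the lowest library and a library above all KO libraries but replicate 1. The range over the 10 libraries was 14.2-fold. The means were 3.98 ± 1.28 FPKM in KO and 2.45 ± 1.89 FPKM in WT livers. The log2 fold change of 0.84 was the largest of the members in size, but its 95% CI ran from -0.22 to 1.91 and it did not pass (limma adjusted p = 0.521; exact permutation p = 0.183). Leaving out WT replicate 2, the library at 0.40 FPKM, brought it to 0.49, and leaving out WT replicate 3 brought it to 1.15.

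Some clock genes differed widely between the same livers and others little. Clock itself ran from 4.74 to 6.11 FPKM in KO and from 4.99 to 6.77 FPKM in WT livers, and Hlf, another clock output factor, from 16.98 to 21.53 FPKM in KO and from 16.74 to 27.34 FPKM in WT livers. Clock, Hlf and Dbp were named after their values were seen. Dbp, also a clock output factor, was at 1.13, 8.25, 4.24, 9.59 and 17.33 FPKM in KO and at 2.71, 5.50, 14.50, 37.91 and 46.24 FPKM in WT replicates 1 to 5, a 40.9-fold range (log2 fold change -1.08, limma adjusted p = 0.690). Nr1d1, which encodes the clock repressor REV-ERB alpha, was at 27.60, 52.99, 45.69, 63.82 and 43.36 FPKM in KO and at 55.41, 46.56, 75.03, 79.56 and 62.72 FPKM in WT replicates 1 to 5 (log2 fold change -0.47, limma adjusted p = 0.425). The clock repressor gene Ciart was at 4.33, 4.26, 4.63, 3.24 and 3.07 FPKM in KO and at 0.78, 0.86, 4.34, 2.22 and 5.43 FPKM in WT replicates 1 to 5. WT replicate 2 was thus low for both Elovl3 and Ciart, and WT replicate 5 was low for Elovl3 but high for Ciart and Dbp. The part of the clock genes in the spread of Elovl3 was not tested.

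Fads3, Fads6 and Scd2 stand outside the polyunsaturated pathway. Fads6, whose substrate is not established, was at 17.48, 21.64, 19.50, 22.53 and 20.40 FPKM in KO and at 16.25, 28.03, 19.65, 25.60 and 22.32 FPKM in WT replicates 1 to 5. All KO values lay within the WT range. The means were 20.3 ± 1.96 FPKM in KO and 22.4 ± 4.67 FPKM in WT livers, with a log2 fold change of -0.12 (95% CI -0.40 to 0.16; limma adjusted p = 0.763). It ran from -0.22 without WT replicate 1 to -0.03 without WT replicate 2.

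Fads3 and Scd2 were close to the lower limit of the genes tested. Fads3 had 0.42, 0.48, 0.83, 0.66 and 1.06 FPKM in KO replicates 1 to 5 and 0.52, 0.81, 0.48, 0.91 and 0.48 FPKM in WT replicates 1 to 5, with means of 0.690 ± 0.262 FPKM in KO and 0.640 ± 0.205 FPKM in WT livers. Scd2 had 0.48, 0.65, 0.72, 0.78 and 0.96 FPKM in KO replicates 1 to 5 and 0.60, 0.85, 0.65, 0.85 and 0.66 FPKM in WT replicates 1 to 5, with means of 0.718 ± 0.176 FPKM in KO and 0.722 ± 0.119 FPKM in WT livers. In both genes the lowest and the highest of the 10 libraries were KO libraries, replicates 1 and 5. The log2 fold changes were 0.05 for Fads3 (95% CI -0.32 to 0.43; limma adjusted p = 0.933) and -0.01 for Scd2 (95% CI -0.29 to 0.27; limma adjusted p = 0.983). Without KO replicate 5 the Fads3 value was -0.05, and that of Scd2 was 0.06 without KO replicate 1. Scd2 resembles Scd1, and how the authors' counting split reads between them is uncertain. KO replicate 2, with the highest Scd1 level of 488.37 FPKM, had 0.65 FPKM of Scd2. Whether reads of Scd1 entered the Scd2 values was not tested.

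In order of level, the mean over the 10 libraries was 354 FPKM for Fads2, 278 FPKM for Elovl2, 277 FPKM for Elovl5 and 126 FPKM for Fads1. It was 21.8 FPKM for Elovl1, 21.3 FPKM for Fads6, 3.22 FPKM for Elovl3, 0.72 FPKM for Scd2 and 0.665 FPKM for Fads3. The 4 genes of the polyunsaturated pathway thus stood above the others, and by mean level they ranked 233, 296, 299 and 634 of 12395 genes tested. Fads2 exceeded Elovl2, Elovl5 exceeded Fads1, and Fads1 exceeded Elovl1 in 10 of 10 libraries. Elovl2 and Elovl5 did not differ in order, with Elovl2 above Elovl5 in 5 of 10, and Elovl1 was above Fads6 in 6 of 10 and Scd2 above Fads3 in 7 of 10. The summed level of the 9 members was 1019 ± 150.2 FPKM in KO and 1147 ± 111 FPKM in WT livers, of which Fads2 made up 32.5% in KO and 32.8% in WT, and Elovl2 25.7% in both.

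Ratios within a library do not depend on how the library was scaled. Their permutation tests compared the mean log2 ratio, while the averages given are those of the ratios themselves. The Fads2 to Fads1 ratio, which sets the first desaturase against the second, was 2.59, 2.90, 2.18, 3.05 and 2.45 in KO replicates 1 to 5 and 2.95, 2.37, 3.23, 3.40 and 3.03 in WT replicates 1 to 5. It averaged 2.63 ± 0.347 in KO and 2.996 ± 0.393 in WT livers, and the groups overlapped (exact permutation p = 0.175, adjusted p = 0.698 over 4 ratios). The Elovl5 to Fads2 ratio averaged 0.774 ± 0.0933 in KO and 0.802 ± 0.134 in WT livers (exact permutation p = 0.714). That of Elovl2 to Elovl5, the later elongase over the earlier, averaged 1.04 ± 0.175 in KO and 0.986 ± 0.118 in WT livers (exact permutation p = 0.587). Scd2 stood at 0.00581 ± 0.00498 of Scd1 in KO and 0.00690 ± 0.00479 in WT livers (exact permutation p = 0.508). The adjusted p was 0.714 for each of these 3 ratios, and the smallest p the design allows is 0.00794.

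The members also varied among livers of 1 genotype. After removal of the genotype means, 36 pairs of members were compared over the 10 libraries. No pair passed a permutation test within genotype after adjustment over the 36 pairs, and 5 pairs had an unadjusted p under 0.05 by Pearson's r. Fads3 and Scd2, the pair with the lowest p by Pearson's r, had r = 0.911 (permutation p = 0.00171, adjusted p = 0.0616) and Spearman's rho = 0.890 (permutation p = 0.00337, adjusted p = 0.0607). It had r = 0.837 without KO replicate 5 and WT replicate 4, the 2 libraries farthest from the median of Fads3. Both genes of this pair lay near the filter of 0.5 FPKM. Fads1 and Elovl5, the pair with the lowest p by Spearman's rho, had r = 0.846 (permutation p = 0.00475, adjusted p = 0.0855) and rho = 0.879 (permutation p = 0.00161, adjusted p = 0.0580), and r = 0.776 without KO replicates 2 and 5. Within the genotypes, r for Fads1 and Elovl5 was 0.964 in the 5 KO libraries and 0.820 in the 5 WT libraries.

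Fads1 and Fads2, neighbours in the gene cluster, had r = 0.645 (permutation p = 0.119, adjusted p = 0.442) and rho = 0.382 (permutation p = 0.323, adjusted p = 0.749). This relation rested on KO replicates 2 and 5, without which r was -0.276. Fads2 and Elovl5 had r = 0.619 (permutation p = 0.0282, adjusted p = 0.254) and rho = 0.394 (permutation p = 0.237, adjusted p = 0.749), and r was 0.287 without the same libraries. Relative to the KO mean, KO replicate 5 deviated by -0.65 log2 units for Elovl3, -0.51 for Fads2, -0.41 for Fads1, -0.34 for Elovl5 and -0.20 for Elovl2, and by 0.42 for Fads3 and 0.27 for Scd2, as the map of deviations shows.

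**Figure D3:**
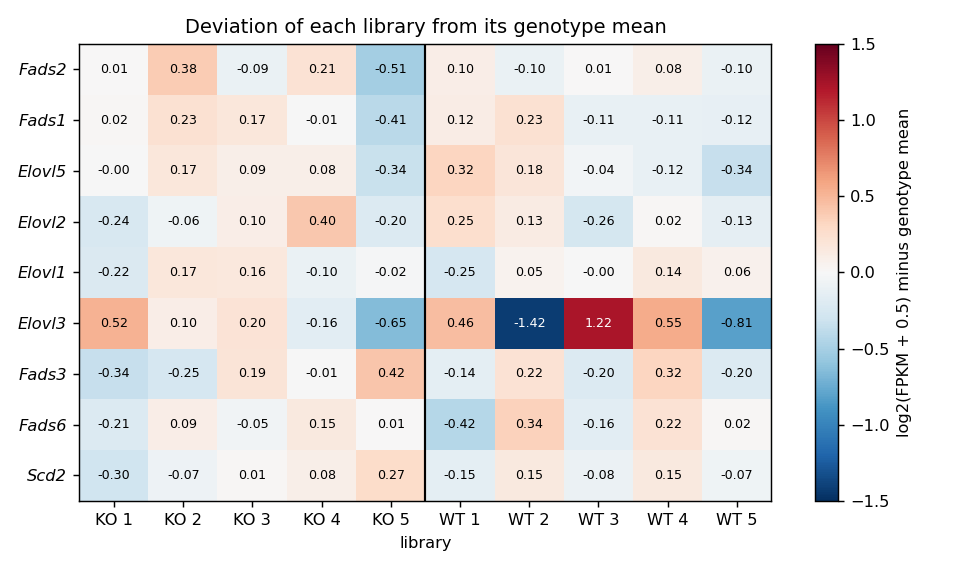
Deviation of log2(FPKM + 0.5) from the mean of the library's own genotype, for the 9 genes (rows) in the 5 KO and 5 WT libraries (columns), with red above and blue below the mean. KO replicate 5 is blue for Fads2, Fads1, Elovl5, Elovl2 and Elovl3 and red for Fads3 and Scd2, and the widest deviations are those of Elovl3 in WT replicates 2 and 3, at -1.42 and 1.22.

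**Figure D4:**
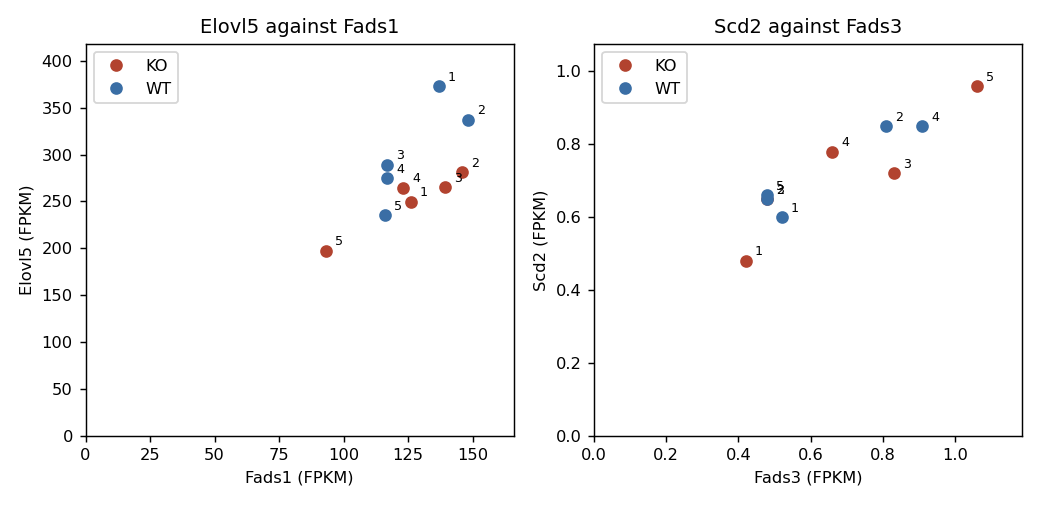
FPKM of Elovl5 against Fads1 (left) and of Scd2 against Fads3 (right), both axes linear from 0, with each point 1 library numbered by replicate, KO in red and WT in blue. Libraries high in 1 gene of a pair tend to be high in the other, with genotype-centred r of 0.846 and 0.911, neither past the adjusted threshold. Fads3 (0.42 to 1.06 FPKM) and Scd2 (0.48 to 0.96 FPKM) lay near the filter of 0.5 FPKM.

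Beside these deviations, KO replicate 5 had 32.70 FPKM of Srebf1, the gene of SREBP-1c, the highest of the 10 libraries, against 14.73 to 22.08 FPKM in the other KO libraries and 14.25 to 28.11 FPKM in WT livers. Srebf1 was named after its values were seen. Ppara, the gene of PPAR alpha, was at 54.60 FPKM in KO replicate 5, the lowest of the 10 libraries, against 65.52 to 76.80 FPKM in the other KO libraries and 65.16 to 91.59 FPKM in WT livers. The summed level of Kupffer cell and macrophage markers was 388.65 FPKM in KO replicate 5, within a range of 326 to 475 FPKM in KO and of 371 to 513 FPKM in WT livers. The part of these levels in the pattern of KO replicate 5 was not tested. In KO replicate 1, the lowest library for Fads3, Scd2 and Elovl2, the summed markers of Kupffer cells, sinusoidal endothelium and cholangiocytes were the lowest of all 10 libraries, at 326, 186 and 19.2 FPKM. Their part in the low values was not tested. In whole liver, fewer cells of a type and less RNA per cell cannot be told apart.

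The genes most like 4 members were those with the highest Pearson's r of genotype-centred values over the 10 libraries. They were picked from all genes tested, and so are a description only. Other members and clone or model gene names, such as those ending in Rik, were passed over. The libraries shared 1 table and its scaling. For Fads1 they were Rbm10, Ackr2 and Slc28a2 (r from 0.939 to 0.957, rho from 0.879 to 0.939). For Fads2 they included Ten1 and Acvr2b, at r of 0.919 and 0.872, with rho of 0.939 and 0.515. Those of Elovl2 were Bcor, Lepr and Zmynd15 (r from 0.930 to 0.957, rho from 0.879 to 0.964), and those of Elovl5 were C2, Mycl and Snrnp40 (r from 0.934 to 0.949, rho from 0.891 to 0.915). None of the genes named here passed the limma test between KO and WT.

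The surroundings of the members were described as 8 lists, 6 of enzymes and regulators that work with them and 2 of clock genes and of male-biased liver genes. Of 63 list genes above the filter, none passed the limma test at an adjusted p of 0.05. An unadjusted p under 0.05 was found for 11 of 41 enzyme and regulator genes and 6 of 22 clock and male-biased genes, against 11.8% of all genes tested. In the elongation cycle, the elongases hand their product to a reductase, a dehydratase and a second reductase. Of its 6 genes, 2 were higher and 4 lower in KO, with a median log2 fold change of -0.16. The dehydratase genes lay in both directions. Hacd3, the most abundant of them, was at 78.6 ± 6.47 FPKM in KO and 88.7 ± 2.24 FPKM in WT livers (limma adjusted p = 0.280), Hacd1 at 6.41 ± 1.33 FPKM in KO and 8.25 ± 1.06 FPKM in WT livers, Hacd4 at 0.576 ± 0.125 FPKM in KO and 0.75 ± 0.0636 FPKM in WT livers, and Hacd2 at 19.6 ± 1.29 FPKM in KO and 16.8 ± 1.59 FPKM in WT livers (limma adjusted p = 0.292). The 5 KO values of Hacd2, from 18.26 to 21.09 FPKM, lay just above the 5 WT values, from 14.49 to 18.23 FPKM. Over all genes tested, 2.79% had groups that did not overlap.

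Of 7 further desaturase and elongase genes, 3 were above the filter, 2 of them higher and 1 lower in KO (median log2 fold change 0.18). Elovl6, the elongase of newly made palmitate, was at 6.20 ± 0.715 FPKM in KO and 5.43 ± 0.783 FPKM in WT livers (limma adjusted p = 0.551). Scd1, the main stearoyl-CoA desaturase of liver, was at 206.86, 488.37, 229.32, 63.14 and 96.83 FPKM in KO and at 224.38, 164.40, 158.50, 57.42 and 85.42 FPKM in WT replicates 1 to 5. Degs1, which makes the double bond of ceramide, was at 46.2 ± 3.71 FPKM in KO and 51.1 ± 2.43 FPKM in WT livers (limma adjusted p = 0.406). Elovl4, Elovl7, Scd3 and Scd4 were below 0.5 FPKM on average.

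Fatty acid desaturases receive electrons by way of cytochrome b5 and its reductases. Of 5 such genes tested, 1 was higher and 4 lower in KO (median log2 fold change -0.03). With median-of-ratios scaling 3 were higher and 2 lower (median 0.02). Cyb5r3, the main reductase gene, was at 115 ± 13.3 FPKM in KO and 100.3 ± 3.37 FPKM in WT livers (limma adjusted p = 0.319), and Cyb5a, the electron carrier, at 991 ± 76.8 FPKM in KO and 1011 ± 30.2 FPKM in WT livers (limma adjusted p = 0.876). Cyb5r4 and Cyb5r1 were at 10.96 ± 0.419 and 3.10 ± 0.405 FPKM in KO and at 11.8 ± 0.583 and 3.40 ± 0.729 FPKM in WT livers.

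The 8 tested genes of fatty acid activation and acyl transfer were split evenly, 4 higher and 4 lower in KO (median log2 fold change 0.02), or 5 higher and 3 lower with median-of-ratios scaling. Lpcat3, which places arachidonic and linoleic acid into phospholipids, was at 49.3 ± 4.19 FPKM in KO and 55.9 ± 2.79 FPKM in WT livers (limma adjusted p = 0.309). Agpat3, known to use docosahexaenoic acid, was at 169 ± 12.4 FPKM in KO and 154 ± 5.38 FPKM in WT livers (limma adjusted p = 0.455). The acyl-CoA synthetase genes Acsl1 and Acsl5 were at 382 ± 33.0 and 91.0 ± 8.84 FPKM in KO and at 459 ± 90.1 and 99.6 ± 6.54 FPKM in WT livers.

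Peroxisomal chain shortening is the last step in making docosahexaenoic acid. Of 9 genes, 8 were lower in KO, or 7 with median-of-ratios scaling, with a median log2 fold change of -0.19 (-0.14 with that scaling). Over all genes tested 65.1% were lower, or 50.25% with that scaling. An unadjusted p under 0.05 was found for 5 of the 9, against 11.8% of all genes tested in either direction and 9.07% lower in KO. Abcd2, a peroxisomal carrier of very-long polyunsaturated acyl-CoA, was at 12.18, 15.24, 14.81, 13.18 and 14.26 FPKM in KO and at 19.40, 17.92, 16.48, 19.34 and 22.89 FPKM in WT replicates 1 to 5. These groups did not overlap, as was the case for 2.79% of all genes tested. The log2 fold change was -0.45 (95% CI -0.64 to -0.25), but the adjusted p over all genes was 0.107 in limma. Scp2, the thiolase and sterol carrier gene, was at 1540 ± 133 FPKM in KO and 1753 ± 64.4 FPKM in WT livers (limma adjusted p = 0.278). Decr2 and Ehhadh, also of peroxisomal oxidation, were at 116 ± 6.38 and 636 ± 65.0 FPKM in KO and at 133 ± 13.2 and 765 ± 118 FPKM in WT livers.

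Of 10 regulator genes, 7 were higher and 3 lower in KO (median log2 fold change 0.11), none with an unadjusted p under 0.05. Insig1, which holds SREBP precursors in the endoplasmic reticulum, was at 44.8 ± 13.6 FPKM in KO and 32.9 ± 7.30 FPKM in WT livers (limma adjusted p = 0.508). Rxra, the partner of PPAR alpha and LXR, was at 138 ± 13.2 FPKM in KO and 126 ± 6.56 FPKM in WT livers, Nr1h3, the gene of LXR alpha, at 75.3 ± 6.48 FPKM in KO and 69.9 ± 3.62 FPKM in WT livers, and Ppara at 66.8 ± 8.00 FPKM in KO and 74.3 ± 10.07 FPKM in WT livers.

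Of 15 clock genes tested, 6 were higher and 9 lower in KO, with a median log2 fold change of -0.10. Nr1d2, the second REV-ERB gene, was at 11.4 ± 2.55 FPKM in KO and 16.3 ± 4.10 FPKM in WT livers (limma adjusted p = 0.319), and Cry1, a core repressor, at 4.51 ± 1.32 FPKM in KO and 3.27 ± 0.330 FPKM in WT livers (limma adjusted p = 0.367). Of 11 listed genes known to be higher in male liver, as Elovl3 is, 7 were above the filter. Of these 7, 3 were higher and 4 lower in KO, with a median log2 fold change of -0.07. An unadjusted limma p under 0.05 was found for 4 of the 7, against 11.8% of all genes tested. Susd4 was at 2.09 ± 0.533 FPKM in KO and 0.782 ± 0.294 FPKM in WT livers (limma adjusted p = 0.0729). Cyp2d9 was at 29.7 ± 8.03 FPKM in KO and 17.9 ± 3.33 FPKM in WT livers, and Cyp7b1 at 11.3 ± 1.96 FPKM in KO and 8.90 ± 2.19 FPKM in WT livers. Mup20 was lower in KO, at 22.4 ± 3.25 FPKM against 39.2 ± 10.5 FPKM in WT livers. The groups of Susd4 and Mup20 did not overlap, as was the case for 2.79% of all genes tested. Mup20 and Cyp2d9 belong to families of similar genes, among which the split of reads is uncertain.

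**Figure D5:**
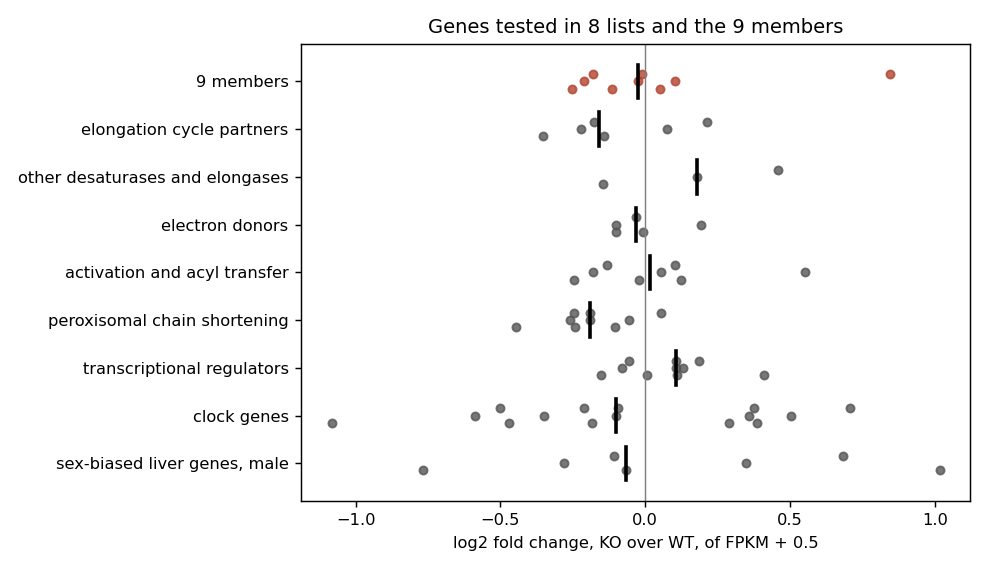
Log2 fold change of KO over WT on the log2(FPKM + 0.5) scale (x axis) for each tested gene of the 8 lists (grey points) and for the 9 desaturase and elongase genes (red points), with the median of each row as a black line. The members centre on -0.03 and the peroxisomal genes on -0.19, and no point passed the adjusted threshold.

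No marker of a cell type passed the limma test. Of the hepatocyte markers, 9 of 9 tested were higher in KO livers, with a median log2 fold change of 0.13. Of the Kupffer cell and macrophage markers 1 of 10 was higher, or 3 with median-of-ratios scaling, and of the stellate cell and fibroblast markers 1 of 10, or 5 with that scaling. The summed levels of sinusoidal endothelial markers ran from 186 to 218 FPKM in KO and from 206 to 226 FPKM in WT livers, and those of stellate cells and fibroblasts from 330 to 366 FPKM in KO and from 324 to 415 FPKM in WT livers. Cholangiocyte markers summed to 19.2 to 28.9 FPKM in KO and 22.5 to 27.8 FPKM in WT livers, erythroid markers to 449 to 597 FPKM in KO and 434 to 789 FPKM in WT livers, and neutrophil markers to 2.30 to 8.86 FPKM in KO and 2.87 to 24.7 FPKM in WT livers. The part of these marker levels in the values above was not tested. The 6 adipocyte markers, relevant to Elovl3 as a gene of brown fat, summed to at most 0.590 FPKM in KO and 0.410 FPKM in WT livers, and the brown fat gene Ucp1 and Lep were at 0 in every library.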

How the data were processed

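Poly(A)-selected RNA of 5 KO and 5 WT liver samples from females was sequenced as pairs, per the labels' protocols. The tools named in the submitters' processing notes are DESeq, DESeq2, RSEM, STAR and R 4.0.2, and the build is mm10. The sources used here do not give their roles, the annotation or the strand setting. The deposited table holds FPKM made by the authors, rounded to 2 decimals, in 1 column per library, and 2 columns without name or values, not used.

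The 9 members, the lists and the tests were chosen with earlier results of these data known. Values were transformed as log2(FPKM + 0.5), which understates changes of low genes. The test, for genes whose mean reached 0.5 FPKM, was limma 3.58.1 (R 4.3.3, trend, robust prior, two-sided, Benjamini-Hochberg, threshold 0.05). All regroupings of 5 against 5 libraries entered the exact tests, and 100000 permutations within genotype the correlations. The limma fit was tested on simulated data with known fold changes. Depth was fitted so that low values of genes with 1 annotated transcript of 350 to 1000 bases became whole fragments: 92.9% to 95.8% came within 0.1 of a whole number. Counts were not rebuilt, since most transcript lengths are not known. The names in the text follow a rule: all members, Etnppl, up to 4 list genes of lowest p, and the 3 genes most like 4 members, of which 1 is not reported here. Clock and regulator genes outside it are marked where named. Of 137 list genes, 136 were matched. Figures were drawn with matplotlib 3.10.9.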

Additional observations from a re-analysis of the deposited data

How the results depend on the processing

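No member passed the limma test under any of 21 alternatives: pseudocounts of 0.1 and 1, 3 other filters, median-of-ratios scaling, TPM, quantile normalization, no trend or robust prior, the replicate block, an adjusted p of 0.1 and each library left out in turn. With a minimum of 2 FPKM Fads3 and Scd2 were not tested, and the median of the other 7 members was -0.116. Elovl5, Elovl2, Fads2 and Fads6 stayed negative and Elovl1 and Elovl3 positive in all refits. Signs changed for values near 0. With median-of-ratios scaling the log2 fold change was 0.0305 for Fads1 and 0.0198 for Scd2 and the members' median, and with quantile normalization 0.0365 for Scd2. These scalings put the median of all genes at -0.0010 and -0.0056, beside -0.05. With single libraries left out, Fads1 ran from -0.0840 to 0.0770, Fads3 from -0.0521 to 0.138, Scd2 from -0.0800 to 0.0638 and the members' median from -0.0840 to 0.0257. The log2 ratio difference then ran from -0.11 to 0.0252 for Elovl5/Fads2 and from -0.0041 to 0.13 for Elovl2/Elovl5.

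Over all genes, 8 passed, 5 with no filter, 5 without trend and robust prior, 5 with the replicate block and 30 at an adjusted p of 0.1, and 4 to 18 with single libraries left out, 18 without WT replicate 2. The cause was not tested. The replicate numbers did not meet the rule for pairing, that each same-numbered correlation exceed 0.1, and the labels give them no shared source, so whether they pair the samples is undecided. Same-numbered deviations correlated at -0.0246 to 0.204, and 3 of 5 numbers had a higher correlation with their own number than with any other. Dbp and Per3 were lowest in replicate 1 and highest in replicate 5 of both genotypes. Nr1d2 was lowest in replicate 1 of both genotypes, and Arntl was lowest in replicate 5 of both. Ciart was lowest in replicate 5 among KO but highest in replicate 5 among WT libraries. Nr1d1 was lowest in replicate 1 among KO but in replicate 2 among WT libraries. These clock genes were picked after their values were seen, and the reason was not tested. With the replicate block Elovl5 had a limma adjusted p of 0.287. The paired test changed no ratio's call, but 5 pairs allow too few sign changes for any ratio to pass 0.05. It therefore decides nothing about the ratios. No pair of members passed under other pseudocounts or median-of-ratios scaling.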
